A study of Mus musculus with 2 samples.

Results

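The fast muscle spots away from bone are the spots of the 2 sections in which fast-twitch muscle transcripts took a large share of all counts. A spot was taken as a member when it lay under tissue, held at least 500 unique molecular identifiers (UMIs), and was more than 300 µm from every spot of the bone region that the study marked at the fracture site. Transcripts of 14 muscle genes had to make up at least 10% of its UMIs. Of the UMIs from 8 fast fibre and 5 slow fibre genes, less than 5% had to come from the slow ones (*Myh7*, *Tnnc1*, *Tnnt1*, *Tnni1*, and *Myl2*). The fast genes were *Myh4*, *Actn3*, *Pvalb*, *Tnnt3*, *Tnnc2*, *Mylpf*, *Atp2a1*, and *Myl1*, and *Acta1* counted toward muscle without deciding its type. This gave 762 members of 1962 spots in the Control section and 321 of 1436 in the Loaded section, 1083 of 3398 in all.

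The assay was Visium for formalin-fixed paraffin-embedded tissue, in which probe pairs for each gene are captured on a grid of spots 100 µm apart and each captured molecule is counted once. Both sections came from female bone cell reporter (BCR) mice, a line with fluorescent labels for osteoblasts and osteoclasts, whose right femur was cut at 12 weeks of age and held by an external fixator. From weeks 3 to 5 after surgery, the Loaded animal received cyclic loading through the fixator in 3 sessions a week and the Control animal received sham loading without force, and both were killed at 17 weeks of age. Because each group is 1 section of 1 mouse, no test across animals is possible, and every difference below is between these 2 sections.

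Fast-twitch fibres carry the fast myosin heavy chains, fast troponins and parvalbumin, shorten quickly, and draw much of their energy from creatine phosphate and from glycogen. Calcium released from the sarcoplasmic reticulum through the ryanodine receptor binds troponin C, which moves tropomyosin on the thin filament, and the calcium pump encoded by *Atp2a1* takes the calcium back. Slow fibres carry their own set of myosins and troponins, more myoglobin and more mitochondria. A spot covers several fibres and the cells between them, so that fewer cells of a type and less RNA per cell cannot be told apart.

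The members formed 15 separate patches in the Control section, the largest with 299, 265, and 104 spots, and 7 in the Loaded section, the largest with 172 and 133. In each section they were divided into 4 blocks, from the side of the bone's long axis on which they lay and their position along it. The Control blocks 1 to 4 held 335, 334, 47, and 46 spots, and the Loaded blocks held 52, 52, 109, and 108. Control block 2 lay farthest from bone, at a median of 2731 µm, and had the lowest median share of the 14 muscle genes, 20.1%. The other blocks had medians between 22.4% and 28.9%.

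**Figure D1:**
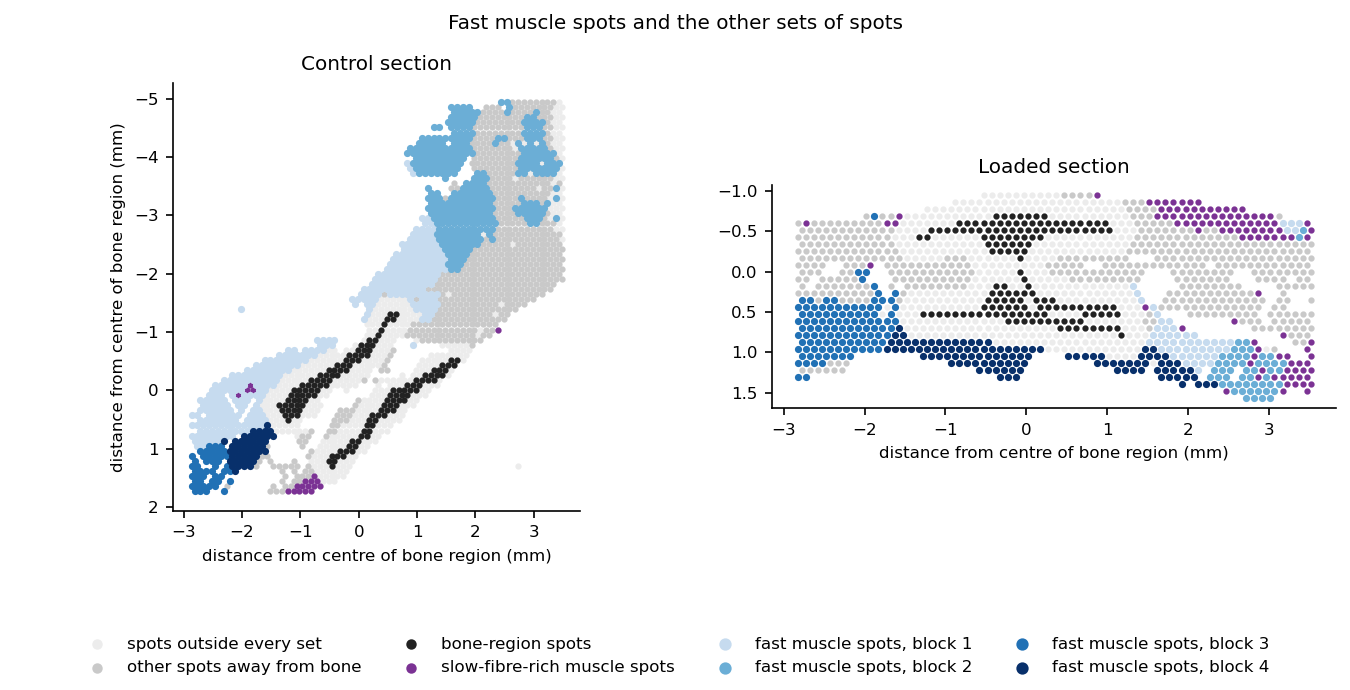
Positions of all spots in the Control (left) and Loaded (right) section, as distance in mm from the centre of the bone region. Blue shades mark the 4 blocks of fast muscle spots, with 762 spots in Control and 321 in Loaded, beside bone-region, slow-fibre-rich muscle, other distant, and remaining spots.

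The counts behind the values differed between the sections. The member spots of the Control section held 5611485 UMIs and those of the Loaded section 1245825, with medians of 5480 and 3314 UMIs and of 1832 and 1329 genes per spot. When every spot was thinned to 1000 UMIs (644 Control and 304 Loaded spots were deep enough), the medians were 487.5 and 518 genes. The Control members fell into a deep and a shallow set: 194 spots had fewer than 2000 UMIs, of which 141 lay in block 2, and 172 of these 194 had a muscle share under 20%. In the Loaded section, 63 spots had fewer than 2000 UMIs. Erythroid marker genes took 2.6% of the UMIs in the shallow Control spots and 0.0936% in those with over 5000 UMIs. Depth, muscle share, and erythroid transcripts moved together, and values are also given for the 147 Control and 193 Loaded spots with 2000 to 5000 UMIs, a window chosen after the depths were seen. A value in this window with fewer than 50 UMIs in both sections together is marked as such and makes no call. The sections shared 557 spot barcodes, 25 of them among members, which mark the same positions of the capture grid.

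**Figure D2:**
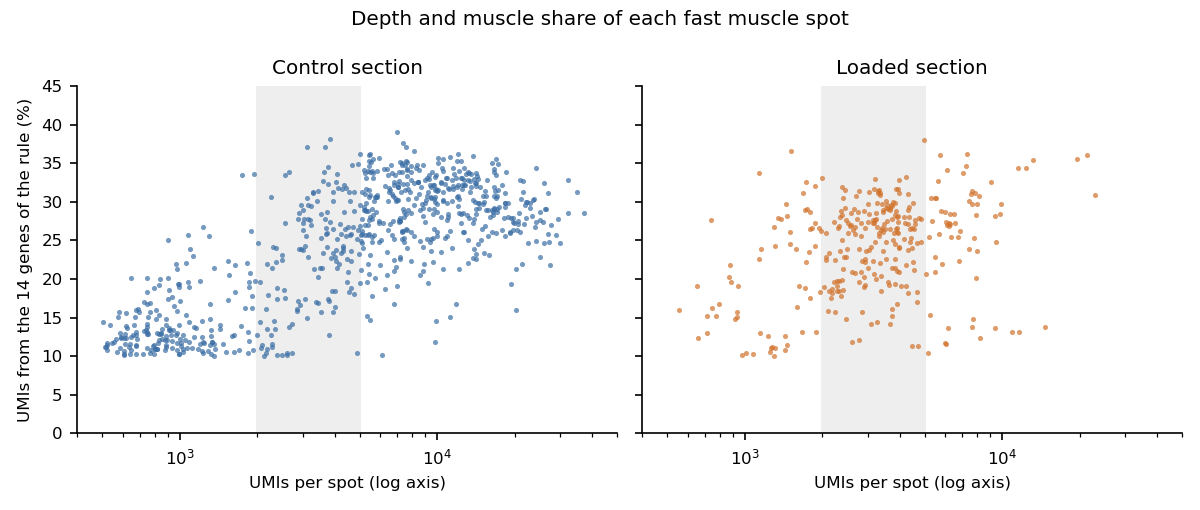
UMIs per spot (log axis) against the percentage of UMIs from the 14 genes of the rule, for each Control (left) and Loaded (right) member spot, with the window of 2000 to 5000 UMIs in grey. A group of shallow Control spots sits near the 10% limit of the rule, and most Loaded spots sit inside the window.

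The limits of the rule cut through a continuous range. The member with the lowest muscle share had 10% in Control and 10.04% in Loaded, and the nearest spots outside had 9.97% and 9.85%. The member with the highest slow share had 4.54% and 4.73%, with 5.26% and 5.03% just outside, and the nearest members to bone were 346.4 µm away in both sections. The 8 fast genes of the rule took 24.1% of all member UMIs in the Control section and 21.3% in the Loaded section. The 5 slow genes took 0.0688% and 0.129%. Among the UMIs of the 4 adult myosin heavy chains, *Myh4*, the chain of the fastest fibres, had 90.6% in Control and 86.9% in Loaded. *Myh1*, the IIX chain and not part of the rule, had 8.03% and 10.2%, and *Myh2*, the IIA chain, 1.09% and 2.14%. The mixture differed within a section: Loaded blocks 1 and 2 had 74.9% and 75.8% *Myh4*, while Loaded blocks 3 and 4 had 89.8% and 90.8%, and the Control blocks ranged from 82% to 94.4%. Probes of related myosin genes may share targets, so these shares depend on how well the probes tell the genes apart.

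To ask how these spots differed between the loaded and the sham-loaded femur, a gene's UMIs were added up across the member spots of each section and scaled by the total of their scran size factors, which gives normalized UMIs per spot. The log2 ratio of Loaded over Control is given with a 95% interval that covers counting error only. Of 8471 genes with at least 50 UMIs, 268 (3.16%) had a log2 ratio of at least 1 and are called higher in Loaded, and 345 (4.07%) had one of at most -1 and are called lower. The depth window gave 2.36% of 3133 tested genes higher and 3.51% lower. These shares of all genes are the background for the counts of each list below. The median gene was at 0.005 and the middle 90% of genes lay between -0.93 and 0.87. The levels in the 4 blocks did not overlap between the sections for 210 genes with Loaded above (2.48%) and 366 with Loaded below (4.32%), and both conditions held for 41 higher (0.484%) and 145 lower genes (1.71%). The share of calls that were higher was 43.7% and moved with the scaling, to 70.2% with library totals (484 higher, 205 lower) and to 25.6% with TMM factors (175 higher, 508 lower). The scran factors shift every log2 ratio by -0.17 relative to library totals, and with TMM factors the median gene was at -0.12.

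Of the 145 lower genes with separate blocks, 99 stayed past the threshold under both library totals and TMM factors. Of 48 that had at least 50 UMIs in the window of 2000 to 5000 UMIs, all 48 kept a log2 ratio below 0 there and 18 stayed at or under -1. The 13 that met every one of these conditions, most of them named here after their values were seen, were *Tnni2*, *Pdk4*, *Srl*, *Pde4d*, *G3bp2*, *Fem1a*, *Lrrc30*, *Hint1*, *Sec61b*, *Micos10*, *Pop5*, *Exoc4*, and *Gstp1*. Of the 41 higher genes, 25 stayed past the threshold under both scalings, only 3 had enough UMIs in the window, and *Eln*, which encodes elastin, was the 1 that stayed past it there (1.43). *Eln* was at 0.59 without Loaded block 3 and at -0.36, on fewer than 50 UMIs, in spots with a muscle share of at least 30%. That limit kept 229 Control and 49 Loaded spots.

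Many calls of the genes described here ended under a setting. With library totals they ended for *Myom1*, *Ldb3*, *Sln*, *Pgm1*, *Hadhb*, *Ndufb3*, *Atp5g1*, *Fbxo40*, *Ccn2*, *Klf2*, *Psmb5*, and *Mfn2*, and with TMM factors for *Tnnt1*, *Tmem38b*, *Myo9b*, *Atp9b*, *Musk*, *Ppp1r11*, *Arap1*, *Myoz2*, *Myom3*, *Nes*, *Plk2*, *Eda2r*, *Clock*, and *Hbb-bs*. Where at least 50 UMIs remained, they ended in the depth window for *Fmo2*, *Ppp1r11*, *Myom1*, *Ldb3*, *Pgm1*, *Phkg1*, *Pfkfb1*, *Hadhb*, *Ndufa6*, *Fbxo40*, *Foxo4*, *Postn*, *Camp*, *Hbb-bt*, *Hbb-bs*, *Mbnl1*, *C3*, and *Mfn2*. At a muscle share of at least 20% they ended for *Fmo2*, *Eln*, *Musk*, *Arap1*, *Myoz2*, *Csrp3*, *Ankrd2*, *Myom3*, *Pgm1*, *Hadhb*, *Fbxo40*, *Myh8*, *Tagln*, and *Acta2*, and at 30% for *Fmo2*, *Tfdp2*, *Csrp3*, *Psmb5*, *Tagln*, *Acta2*, *Cd74*, and *C3*. A slow share below 2% ended those of *Tnnt1*, *Musk*, *Ppp1r11*, *Arap1*, *Myoz2*, *Csrp3*, *Ankrd2*, *Myom3*, *Myh8*, *Eda2r*, *Klf2*, and *Hbb-bs*. The calls that ended with 1 block left out included those of *Fmo2*, *Eln*, *Phf14*, *Pgm1*, *Foxo4*, *Fbxo40*, *Ndufa6*, *Klf2*, *Cry2*, and *H2-Ab1*. Larger moves with 1 block left out were those of *Tnnt1* (to 0.21), *Nes* (0.24), *Psmb5* (-0.35), *Hbb-bs* (0.36), and *Clock* (0.46). *Myom3* (0.49), *Atp9b* (0.53), *Hbb-bt* (0.55), and *Tagln* (0.60) also fell well within the threshold. The calls of *Tnni2*, *Pdk4*, *Srl*, *Pde4d*, and *Retnla* held under both scalings, in the window, at muscle shares of at least 20% and 30%, at a slow share below 2%, and with any 1 block left out. Those of *Zbtb16*, *Zpr1*, *Ces1d*, *Nmnat3*, *Sacm1l*, *Atg9a*, *Nr4a3*, *Psmc1*, *Tep1*, *Ddr2*, and *Dock6* held wherever at least 50 UMIs remained, which was not so in the window.

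*Tnni2*, the fast troponin I that holds the thin filament off until calcium binds, had the largest ratio of the fast fibre genes. It lies at chr7:142441808-142444410 (GRCm38, plus strand, ENSMUSG00000031097). Its level was 26.9, 24, 22.8, and 22.7 normalized UMIs per spot in Control blocks 1 to 4 and 10.7, 11.9, 5.56, and 12 in the Loaded blocks. Every Control block lay above every Loaded block. Over all members the level was 25.6 in Control (22200 UMIs) and 9.38 in Loaded (2032 UMIs), 2.73-fold lower, with a log2 ratio of -1.45 (interval -1.52 to -1.38). Under all alternatives run for it, the ratio stayed between -2.04 and -1.13, and it was -1.26 in the depth window. At 1000 UMIs per spot, 94.9% of Control spots had a *Tnni2* UMI (exact binomial interval 92.9 to 96.4) and 75% of Loaded spots (69.7 to 79.8), against 50.1% and 32.5% of the other spots away from bone.

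The remaining fast fibre genes outside the rule had smaller ratios. Of the 14 tested, 0 were higher and only *Tnni2* was lower (7.14% beside 4.07% of all genes), and 12 had ratios below 0, with a median of -0.42. *Tpm1*, the main tropomyosin of fast fibres (chr9:67022590-67049406), had 148, 139, 127, and 113 normalized UMIs in the Control blocks and between 61.4 and 90.7 in the Loaded blocks. These blocks did not overlap, and the log2 ratio was -0.90 (-0.59 in the depth window). *Gpd1*, which links glycolysis to lipid synthesis, was at -0.96 and *Mybpc2*, fast myosin-binding protein C, at -0.48, both with separate blocks. *Myh1* was at 0.01 and *Myh2* at 0.65, and the latter was highest in Loaded block 1 (36.3) and lowest in Control block 2 (1.17). *Myh2* was at -0.11 at a muscle share of at least 20%, 0.08 at 30%, and 0.09 at a slow share below 2%. In the depth window, the median of the 14 genes was 0.05.

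The fast genes that chose the spots are described without a reading of their direction. *Myh4* had 465, 483, 381, and 320 normalized UMIs in the Control blocks and 219, 320, 407, and 345 in the Loaded blocks, a log2 ratio of -0.39. *Myl1* was at -0.71, *Mylpf* at -0.57, *Atp2a1* at -0.52, *Pvalb* at -0.50, and *Actn3* at -0.35, while *Tnnc2* was at -0.04, *Tnnt3* at 0.13, and *Acta1* at -0.15. In the depth window, *Mylpf* was at 0.03, *Atp2a1* at 0.14, and *Myh4* at -0.03.

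**Figure D3:**
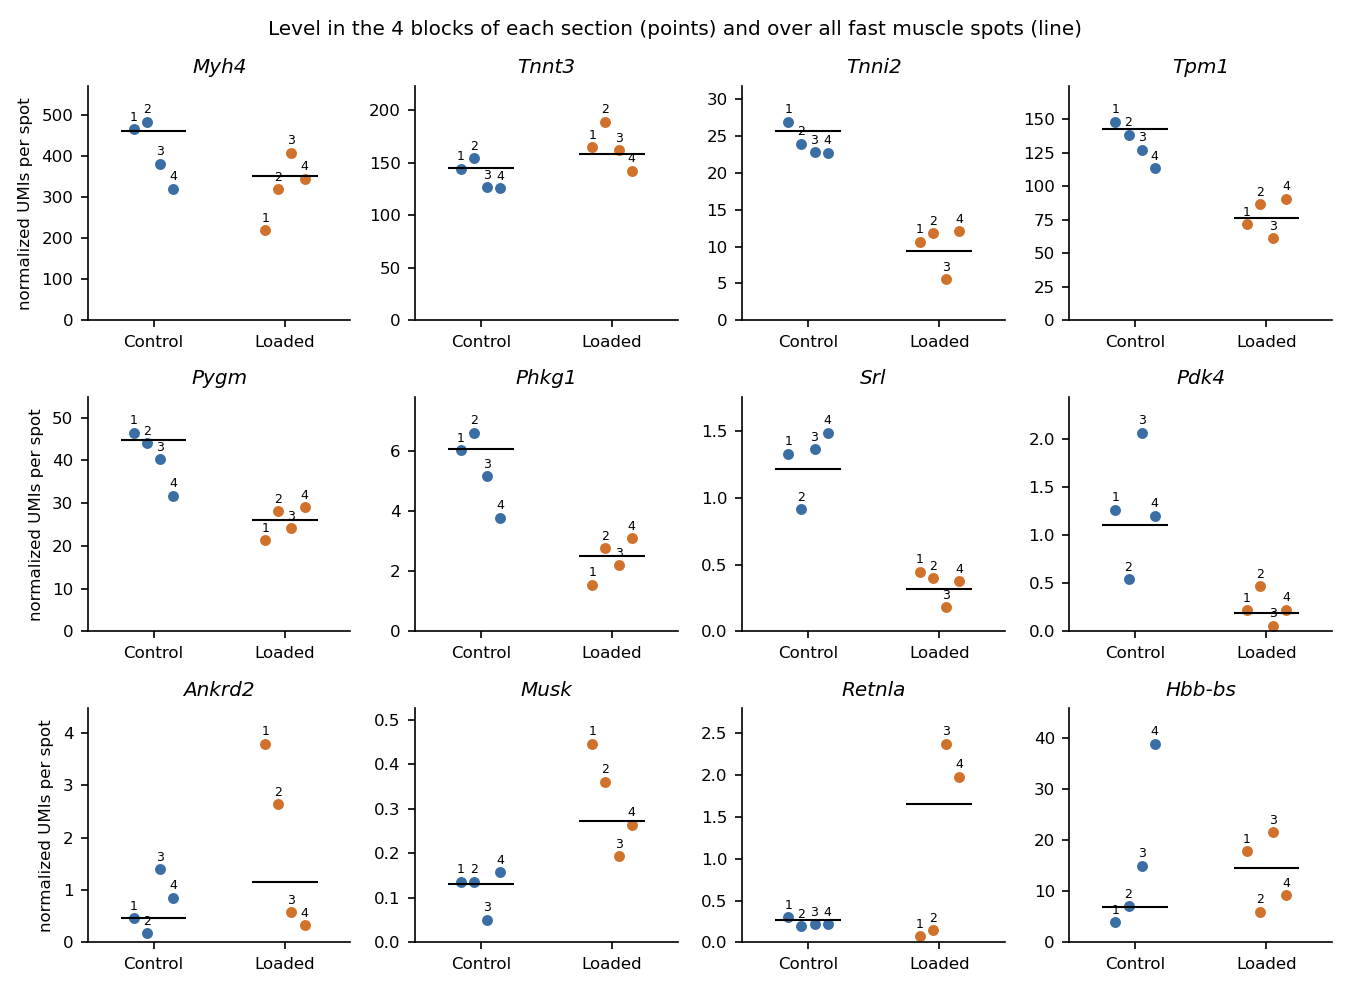
Normalized UMIs per spot of 12 genes in the 4 numbered blocks of each section (points) and over all members (line). For *Tnni2*, *Tpm1*, *Pygm*, *Phkg1*, *Srl*, and *Pdk4* every Control block lies above every Loaded block, while the high Loaded values of *Ankrd2* come from blocks 1 and 2 and those of *Retnla* from blocks 3 and 4.

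Slow fibre genes outside the rule were uneven between blocks. Of 10 tested, 3 were higher in Loaded (30% beside 3.16% of all genes) and 0 lower, with a median of 0.47. These counts turned with the choice of spots. At a slow share below 2%, 0 were higher and 2 lower (median 0.08), beside 3.33% and 4.76% of all genes there. At a muscle share of at least 20%, 0 were higher and 2 lower (0.04), beside 3.36% and 4.99%. In the depth window, 4 of 9 were higher (0.87), beside 2.36%. *Ankrd2*, a stretch-responsive ankyrin repeat protein, had 0.469, 0.18, 1.4, and 0.854 normalized UMIs in the Control blocks and 3.79, 2.64, 0.581, and 0.327 in the Loaded blocks (log2 ratio 1.31). *Csrp3*, a Z-disc LIM protein, was at 1.15 and *Myoz2*, the slow calsarcin, at 1.06. All 3 were high in Loaded blocks 1 and 2 and overlapped with Control elsewhere. Without Loaded block 1, *Csrp3* was at 0.17, *Myoz2* at 0.34, and *Ankrd2* at 0.74. *Myh7*, a slow gene of the rule, had its highest level in the same place, 13 in Loaded block 2, and was at 0.0962 in Control block 2. *Mb*, which encodes myoglobin, was at -0.90 with overlapping blocks.

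Of 23 sarcomere and Z-disc genes, 1 was higher and 2 were lower (4.35% and 8.7%, beside 3.16% and 4.07% of all genes), with a median of -0.10. *Myom1*, the M-line protein myomesin, was 3.46 in Loaded and 7.09 in Control (log2 ratio -1.04, blocks apart), and *Ldb3*, the Z-disc protein ZASP, was at -1.10 with overlapping blocks. In the depth window they were at -0.56 and -0.45, and with library totals at -0.86 and -0.93, and both calls ended under each. The list median became 0.34 in the window. *Actn2*, the alpha-actinin of all fibre types, was at 0.92 with overlapping blocks, *Ttn* (titin) at -0.52, *Neb* (nebulin) at -0.71, and *Des* (desmin) at -0.45. In the window *Ttn* was at 0.18 and *Neb* at 0.07, with their direction turned. *Myom3*, a myomesin of slow and intermediate fibres, was the higher gene, with 91 and 46 UMIs (1.02), and its call ended with TMM factors (0.89).

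Of 24 genes of calcium release and uptake, 0 were higher and 2 were lower (8.33% beside 4.07% of all genes), and 21 had ratios below 0 (median -0.36). *Srl* encodes sarcalumenin, a calcium-binding glycoprotein in the lumen of the sarcoplasmic reticulum, and lies at chr16:4480216-4541816 (minus strand, ENSMUSG00000022519). It had 1.33, 0.914, 1.36, and 1.49 normalized UMIs in the Control blocks and 0.446, 0.398, 0.181, and 0.378 in the Loaded blocks. The sections did not overlap, and the level was 3.88-fold lower in Loaded (1056 and 68 UMIs, log2 ratio -1.96, interval -2.33 to -1.60). The ratio was -1.69 in the depth window and between -2.14 and -1.62 with any block left out. At 1000 UMIs, 16.1% of Control spots (13.4 to 19.2) and 6.91% of Loaded spots (4.33 to 10.4) had an *Srl* UMI, against 3.54% and 2.06% of other spots away from bone.

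The other calcium gene called lower, *Sln* (sarcolipin, an inhibitor of the calcium pump), lay just past the threshold on 457 and 57 UMIs. Control block 1 had 0.843 normalized UMIs and the other Control blocks at most 0.0852, and without block 1 its ratio was 2.78. *Stac3*, an adaptor of the voltage sensor, was at -0.97 and *Cacnb1*, a subunit of that sensor, at -0.89, both with overlapping blocks. *Ryr1*, the release channel and the most abundant gene of the list, was at -0.35, and *Casq1*, the calcium store protein of fast fibres, at -0.42 (0.10 in the window). In the depth window, the median of the list was -0.08 and only *Srl* stayed past the threshold.

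Of 18 tested genes of glycogen breakdown and glycolysis, 0 were higher and 3 were lower (16.7% beside 4.07% of all genes), and 14 had ratios below 0 (median -0.45). *Phkg1*, the catalytic subunit of muscle phosphorylase kinase that switches glycogen breakdown on (chr5:129863421-129898549, minus strand), had 6.05, 6.62, 5.18, and 3.8 normalized UMIs in the Control blocks. The Loaded blocks had 1.56, 2.78, 2.2, and 3.11, all below the Control blocks, and the log2 ratio was -1.26 (interval -1.39 to -1.14). *Pfkfb1*, which sets the level of an activator of glycolysis, was at -1.38 (522 and 50 UMIs) and *Pgm1*, phosphoglucomutase, at -1.09, both with separate blocks. With library totals *Pgm1* was at -0.91 and its call ended. *Pygm*, the glycogen phosphorylase that *Phkg1* acts on, was at -0.78, also with separate blocks.

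The most abundant glycolytic gene, *Aldoa* (aldolase), had overlapping blocks and a ratio of -0.24 (0.30 in the window), *Pfkm* (phosphofructokinase) was at -0.32 (0.13 in the window), and *Pkm* (pyruvate kinase) at -0.54. In the depth window, 0 of 14 tested genes of this list were past the threshold and the median was 0.10, with *Phkg1* at -0.66, *Pfkfb1* at -0.65, and *Pgm1* at -0.79. Genes of the creatine phosphate system gave 1 higher of 8 (*Gatm*, 33 and 20 UMIs, 12.5% beside 3.16%) and 0 lower, and muscle creatine kinase, *Ckm*, was at -0.26.

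**Figure D4:**
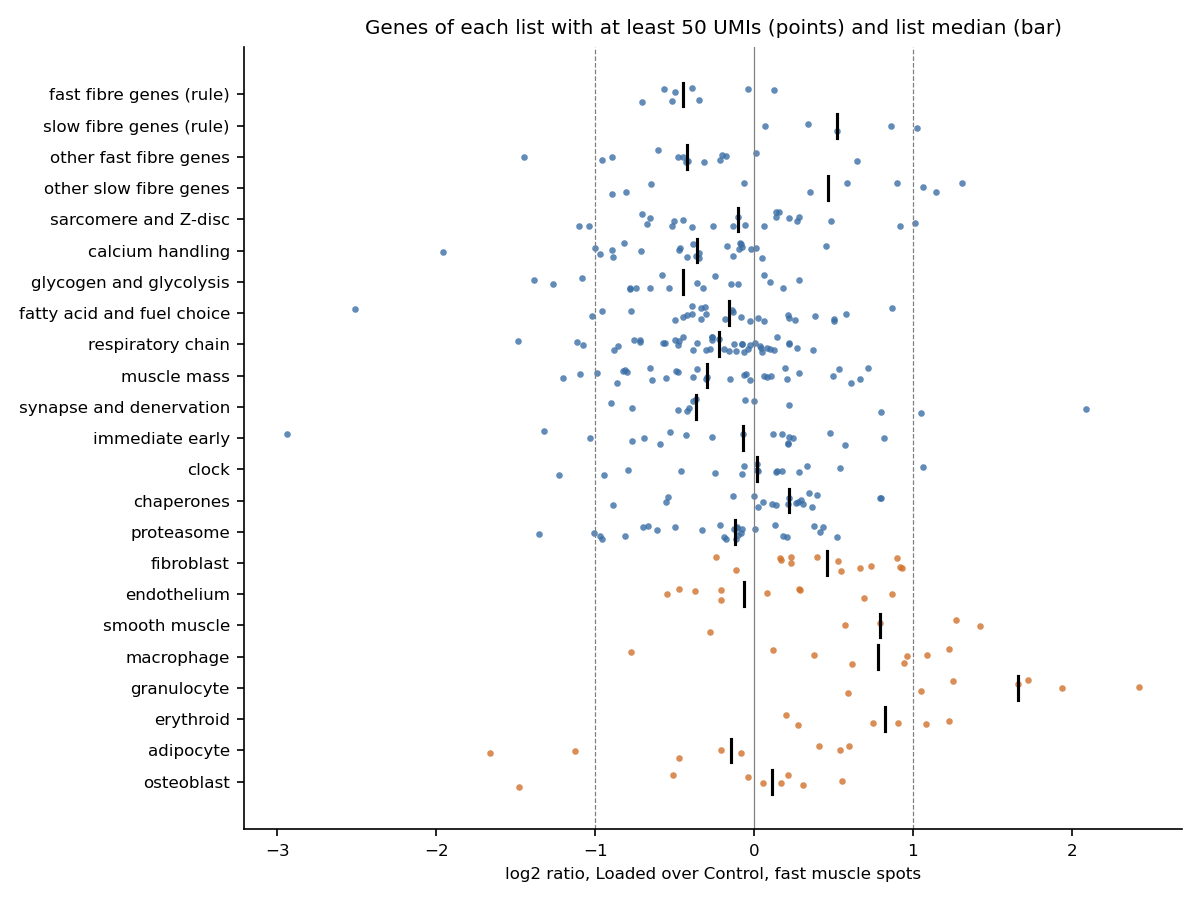
Log2 ratio of Loaded over Control in fast muscle spots for each gene with at least 50 UMIs in 23 lists (points), with the list median (bar) and dashed lines at -1 and 1. Muscle lists are blue and lists of other cell types are orange, and the medians of the lists drawn range from -0.45 for glycogen and glycolysis to 1.66 for granulocyte genes. Lists not drawn include chondrocyte genes, with a median of -3.53 over 3 genes tested.

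In the list of fatty acid use and fuel choice, 0 of 28 tested genes were higher and 2 lower (7.14% beside 4.07% of all genes, median -0.16). *Pdk4*, the kinase that closes pyruvate dehydrogenase and spares glucose when fat is burned, had the largest ratio of the list. It lies at chr6:5483351-5496309 (minus strand, ENSMUSG00000019577). It had 1.26, 0.541, 2.06, and 1.2 normalized UMIs in the Control blocks and 0.223, 0.47, 0.0605, and 0.227 in the Loaded blocks, with no overlap, though Control block 2 and Loaded block 2 were close. Over all members it was 5.71-fold lower in Loaded (959 and 42 UMIs, log2 ratio -2.51, interval -3.00 to -2.07). Of all alternatives the depth window moved this value most, to -1.20, where Control spots had 0.488 normalized UMIs instead of 1.22 in spots with over 5000 UMIs. At 1000 UMIs, 11.3% of Control spots (8.99 to 14) and 2.3% of Loaded spots (0.931 to 4.69) had a *Pdk4* UMI. The Loaded share was close to that in other spots away from bone (1.83%).

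*Pdk2*, the most abundant gene of the list and a kinase of the same enzyme, was at 0.22 with overlapping blocks. *Hadhb*, a subunit of the mitochondrial trifunctional protein, was called lower at -1.02 with overlapping blocks and was at -0.56 in the window and at -0.85 with library totals. *Ucp3*, a mitochondrial carrier of muscle, was at -0.96 with separate blocks but at -0.03 in the window (22 and 27 UMIs), and *Cpt1b*, the entry step of fatty acids into mitochondria, was at -0.31 (0.21 in the window). Of 43 genes of the respiratory chain and ATP synthase, 0 were higher and 3 lower, 6.98% beside 4.07% of all genes (*Ndufa6* at -1.49, *Atp5g1* at -1.12, and *Ndufb3* at -1.08), and only *Ndufa6* had separate blocks. *Ndufa6* was at -0.82 in the window (38 and 27 UMIs), where its call ended. With library totals *Atp5g1* (-0.94) and *Ndufb3* (-0.90) were within the threshold. *Cox6a2*, the muscle form of a cytochrome oxidase subunit and the most abundant, was at -0.45 and at 0.26 in the window. The list median was -0.22 and became 0.21 in the window, and it was 0.13 at a muscle share of at least 30%.

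Of 31 genes of muscle atrophy and FoxO signalling, 0 were higher and 2 were lower (6.45% beside 4.07% of all genes, median -0.29). *Foxo4*, a forkhead transcription factor of the family that drives atrophy genes, had 0.874, 0.677, 0.767, and 0.823 normalized UMIs in the Control blocks and 0.484, 0.398, 0.242, and 0.403 in the Loaded blocks (log2 ratio -1.20, no overlap). *Fbxo40*, a muscle ubiquitin ligase subunit, was at -1.09, also with separate blocks (1817 and 213 UMIs). In the depth window they were at -0.86 and -0.75, both within the threshold, and *Fbxo40* was at -0.92 with library totals. Other atrophy ligases were within the threshold too, with *Fbxo32* (atrogin-1) at -0.81 and *Trim63* (MuRF1) at -0.64, and their blocks overlapped. *Mstn*, myostatin, a secreted brake on muscle growth, was at -0.99 and at 0.07 in the window (19 and 25 UMIs). *Ctsl*, a lysosomal protease, was at 0.72 and *Txnip*, which limits glucose uptake, at 0.53, both with Loaded blocks above all Control blocks.

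Of 28 proteasome subunits, 2 were lower, 7.14% beside 4.07% of all genes (*Psmc1* at -1.35 with separate blocks and *Psmb5* at -1.01 with overlapping blocks) and 0 higher. Blocks were separate and lower in Loaded for 4 of the 28, beside 4.32% of all genes. In the window *Psmc1* was at -0.67 and *Psmb5* at -0.20, each on fewer than 50 UMIs, and the list median of -0.12 became 0.18. Of 20 chaperone genes, 0 were called in either direction, with *Cryab*, the most abundant, at 0.35, and *Hspb7*, a muscle small heat shock protein, at 0.79. Of 13 ribosome and translation genes, 0 were called, and *Tpt1*, the most abundant, was at -0.34. The direction turned in the window, where *Tpt1* was at 0.57 and the list median of -0.29 became 0.19.

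Genes of the neuromuscular junction and of denervation gave 2 higher (15.4% beside 3.16% of all genes) and 0 lower of 13 tested, although only 4 of the 13 were above 0 and the median was -0.37. *Musk*, the receptor kinase that organises the junction, had 0.137, 0.136, 0.0511, and 0.158 normalized UMIs in the Control blocks and 0.446, 0.361, 0.194, and 0.264 in the Loaded blocks, all higher (log2 ratio 1.05, 114 and 59 UMIs). It was at 0.68 in the window (11 and 22 UMIs) and at 0.93 with TMM factors, within the threshold. *Chrne*, the adult epsilon subunit of the acetylcholine receptor, was at 2.09 on 31 and 33 UMIs and at 0.29 without Loaded block 4, which held the high level (0.34). *Chrna1*, the receptor subunit shared by the fetal and adult forms, was at -0.48, *Chrng*, the fetal subunit, had 14 and 3 UMIs, and *Myog*, a transcription factor that denervation induces, was at -0.77. Of 8 genes of regenerating and developing fibres, 2 were higher (*Myh8* and *Nes*) and *Myh3* was lower (25% and 12.5%, beside 3.16% and 4.07% of all genes). *Myh3*, the embryonic myosin, rested on Control block 1 and was at 1.39 without it, and *Myh8*, the perinatal myosin, had most of its Control UMIs in that block too (1.16, and 4.74 without it).

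Among 19 immediate early genes, 0 were higher and 3 lower (15.8% beside 4.07% of all genes, median -0.07), and in the depth window 0 were higher and 2 lower of 8, beside 3.51% of all genes there (median -0.57). *Nr4a3*, an orphan nuclear receptor induced by exercise, had 92 UMIs in Control and 3 in Loaded (log2 ratio -2.94, interval -5.24 to -1.35). Its relative *Nr4a1*, the most abundant gene of the list, was at -0.77 with separate blocks. *Klf2*, a transcription factor that responds to blood flow, was at -1.03 with separate blocks (-0.86 with library totals), and *Atf3*, a stress-induced factor, at -1.32 with overlapping ones and at 0.81, on fewer than 50 UMIs, in spots with a muscle share of at least 30%. *Fos* was at 0.22 and *Egr1* at 0.21. The paper states that the mice were killed hours after the last loading session, so these values do not cover the time directly after it. Of 17 clock genes, *Cry2* was lower (-1.23, blocks apart) and *Clock* higher (1.06 on 46 and 24 UMIs, and 0.94 with TMM factors). Each was 5.88% of the list, beside 4.07% of all genes lower and 3.16% higher. *Dbp*, *Per1*, and *Arntl*, which swing with time of day, were at 0.02, 0.15, and -0.06.

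Of 22 genes known to respond to load or stretch, 3 were higher (*Ankrd2*, *Csrp3*, and *Postn*) and 1 was lower (13.6% and 4.55%, beside 3.16% and 4.07% of all genes), with a median of 0.22. The window gave 2 higher and 2 lower of 14, beside 2.36% and 3.51% of all genes there, with a median of -0.24. *Postn*, periostin, a matrix protein of connective tissue, was at 1.24 with overlapping blocks and at 0.54 in the window (27 and 49 UMIs), where its call ended. *Ccn2*, a growth factor that mechanical strain induces, was at -1.11, was highest in Control block 2 (1.1), and was at -0.58 without it. Its ratio was -0.93 with library totals, -2.61 in the window (117 and 24 UMIs), and -3.68 at a muscle share of at least 30%. *Vegfa*, the endothelial growth factor, was at -0.94 with separate blocks (0.721 to 0.972 in Control and 0.278 to 0.558 in Loaded). Of 12 p53 target genes, *Eda2r* (51 and 26 UMIs) and *Plk2* (47 and 24 UMIs) were both higher at 1.03 (16.7% of the list beside 3.16% of all genes), and both calls ended with TMM factors (0.90 and 0.91). *Eda2r* was at -0.18 in the window (10 and 11 UMIs), and *Plk2* at -0.079 at a muscle share of at least 30% (fewer than 50 UMIs) and at -0.089 without Loaded block 4. *Cdkn1a*, which encodes p21, was at 0.24 with overlapping blocks. *Ccng1*, the most abundant gene of the p53 list, was at -0.89 and at -0.02 in the window. The list made up 0.131% of UMIs in Control and 0.118% in Loaded.

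Transcripts listed as markers of other cells were present among the members, and several lists took a larger share of UMIs in the Loaded section. The 14 fibroblast genes made up 0.497% of member UMIs in Control and 0.735% in Loaded, led by *Col1a2*, with 0 called and a median of 0.46. The 10 granulocyte genes made up 0.0168% and 0.0536%, led by *Camp*, with 6 of 7 tested higher, and the 8 erythroid genes analysed made up 0.241% and 0.522%, led by *Hbb-bs*, with 2 of 6 higher. The 10 macrophage genes made up 0.0274% and 0.0451% (2 of 8 higher, led by *C1qa*). The 7 smooth muscle genes made up 0.0277% and 0.0543% (2 of 5 higher, led by *Smtn*), and *Tagln* and *Acta2* were highest in Loaded block 3 (1.85 and 1.49 normalized UMIs). Over all genes, 3.16% were higher, and no gene of these 5 lists had separate blocks. Among 10 endothelial genes 0 were called, and *Flt1*, a receptor for vascular growth factor, was at 0.87 with Loaded blocks above all Control blocks, and at -0.40 at a muscle share of at least 30%.

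For 3 of these lists the order of the shares was the reverse in the depth window. In the window of 2000 to 5000 UMIs, erythroid genes made up 0.759% in Control and 0.432% in Loaded, and fibroblast genes 1.1% and 0.787%. Granulocyte genes made up 0.0525% and 0.0418%, and 0 of the 3 tested there were higher, beside 2.36% of all genes. Macrophage genes (0.046% and 0.0507%) and smooth muscle genes (0.0303% and 0.0634%) kept their order. At a muscle share of at least 20%, the shares were larger in Loaded for erythroid (0.116% and 0.361%), granulocyte (0.00678% and 0.0299%), and fibroblast genes (0.342% and 0.476%). There 5 of 6 erythroid genes were higher, beside 3.36% of all genes at that setting. A share of at least 30% was reached by only 229 Control and 49 Loaded spots. At that limit, fibroblast genes (0.264% and 0.249%) and smooth muscle genes (0.0201% and 0.0166%) were the other way round. Of 11 fibroblast genes tested there, 1 was lower, beside 12.2% of all genes at that setting. Erythroid genes were at 0.067% and 0.275%. The 8 chondrocyte genes had 1459 UMIs in Control and 87 in Loaded, of which 1248 lay in Control block 2. *Col2a1*, cartilage collagen, had 695 and 15 UMIs and a normalized level of 2.5 in that block and at most 0.127 in the other Control blocks, and its ratio was -3.53, or -0.71 without it. The nearly identical beta globin genes *Hbb-bs* and *Hbb-bt* may share reads. Tendon genes (0 of 5 higher, 1 lower), osteoblast genes (0 and 1 of 8), osteoclast genes (0 of 3 called), adipocyte genes (0 and 2 of 8), and plasma cell genes (2 higher of 4) made up 0.0847%, 0.0441%, 0.0481%, 0.63%, and 0.0154% of UMIs in Control and 0.0848%, 0.0559%, 0.0606%, 0.539%, and 0.0255% in Loaded. The most abundant genes of these lists, in that order, were *Thbs4*, *Phospho1*, *Ctsk*, *Car3*, and *Ighm*. Which cells their UMIs came from was not tested. Over all genes, 3.16% were higher and 4.07% lower. In the depth window, tendon genes made up 0.206% and 0.0763% (3 of 4 lower) and osteoblast genes 0.103% and 0.0626% (3 of 5 lower). Osteoclast genes made up 0.153% and 0.0749% there (1 of 3 lower), beside 3.51% of all genes lower. The part of these cells in the muscle differences above was not tested.

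Beyond the lists, the genes with separate blocks, at least 100 UMIs and the lowest ratios included *Clec3a*, *Pdk4*, *Zbtb16*, *Zpr1*, *Ces1d*, *Nmnat3*, *Srl*, *Sacm1l*, *Tfdp2*, *Pde4d*, and *Atg9a*. *Clec3a*, a cartilage lectin, had 107 and 0 UMIs, at least 8.92-fold lower against a floor of 3 UMIs over the section. It lay mainly in Control block 2 (0.369 normalized UMIs, and at most 0.0341 in the other Control blocks). Without that block the value was -0.81, which rests on the same floor. It is therefore only a bound and does not show that the difference became smaller. *Zbtb16*, a zinc finger transcription factor (chr9:48654297-48836222), had 0.344, 0.313, 0.273, and 0.411 normalized UMIs in the Control blocks and 0.0372, 0.0723, 0.0121, and 0.113 in the Loaded blocks. Its levels did not overlap, with 288 and 13 UMIs, a log2 ratio of -2.47 (interval -3.40 to -1.67), and -2.49 in the window (36 and 8 UMIs). *Pde4d*, a phosphodiesterase that breaks down cyclic AMP, was at -1.87 on 847 and 58 UMIs and only just reached the threshold of -1 in the window. *Nmnat3*, an enzyme of mitochondrial NAD synthesis, was at -1.98, *Atg9a*, a membrane protein of early autophagy, at -1.84, and *Ces1d*, a carboxylesterase and lipase, at -2.34. *Zpr1*, *Sacm1l*, and *Tfdp2* lay between -2.35 and -1.87 on 7 to 22 Loaded UMIs, and the call of *Tfdp2* ended at a muscle share of at least 30% (-0.86).

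The 12 genes with the highest ratios by the same rule lay between 1.04 and 1.31 and had few counts. *Fmo2*, a flavin-containing monooxygenase, had the most, 344 and 204 UMIs, with 0.332, 0.541, 0.392, and 0.348 normalized UMIs in the Control blocks and 0.707, 0.614, 1.13, and 0.944 in the Loaded blocks (log2 ratio 1.25). It was at 0.80 in the window. *Tmem38b*, a cation channel of the endoplasmic reticulum membrane, was at 1.12 and at 1.41 in the window (9 and 30 UMIs), and *Ddr2*, a collagen receptor, at 1.27. *Eln* was at 1.17, and *Tep1*, *Dock6*, *Phf14*, *Myo9b*, *Atp9b*, *Musk*, *Ppp1r11*, and *Arap1* made up the rest. *Tep1* had the highest ratio, 1.31, and was at 0.26 in the window (14 and 21 UMIs).

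Other genes were singled out after their values were seen. *Retnla*, a secreted protein of alternatively activated macrophages and fat (chr16:48842551-48844461), was 6.32-fold higher in Loaded (227 and 359 UMIs, log2 ratio 2.66). It had 0.192 to 0.302 normalized UMIs in the Control blocks, 0.0744 and 0.145 in Loaded blocks 1 and 2, and 2.37 and 1.98 in Loaded blocks 3 and 4, so that only these last 2 were high. It was at 2.12 in the depth window and at 1.09 at a muscle share of at least 30%. *Cd74* (1.52), *H2-Ab1* (1.33), and *C3* (1.49), genes of antigen presentation and complement, were also highest in Loaded blocks 3 and 4. At a muscle share of at least 30%, *Cd74* was at 0.95 and *C3* at 0.57, within the threshold. *Mbnl1*, a splicing factor known for its loss in myotonic dystrophy, was at -1.45 with separate blocks (1966 and 180 UMIs) and at -0.97 in the window, and *Mfn2*, which fuses mitochondria, was at -1.05, at -0.64 in the window, and at -0.88 with library totals.

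The same ratio was taken in the other sets of spots of both sections, where each set has its own size factors. *Tnni2* was called lower in slow-fibre-rich muscle spots too (19 Control and 106 Loaded), was at -0.92 in other spots away from bone, and was at -2.14 in the bone region. *Tpm1* (-0.95, -0.55, and -1.36) and *Phkg1* (-1.07, -1.03, and -1.56) were also below 0 in all sets. *Pdk4* was at -1.21, -0.81, and -3.48, and *Srl* at -0.36, -0.59, and -2.32. The intervals of *Srl* were -1.08 to 0.41 in slow-fibre-rich spots and -1.29 to 0.09 in other distant spots, and both include 0. *Retnla* was at -0.25, 0.33, and -0.36, and *Fmo2* at 0.17, 0.30, and -1.27. Whether the ratio of any gene differs between these sets cannot be tested with 1 section per group.

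**Figure D5:**
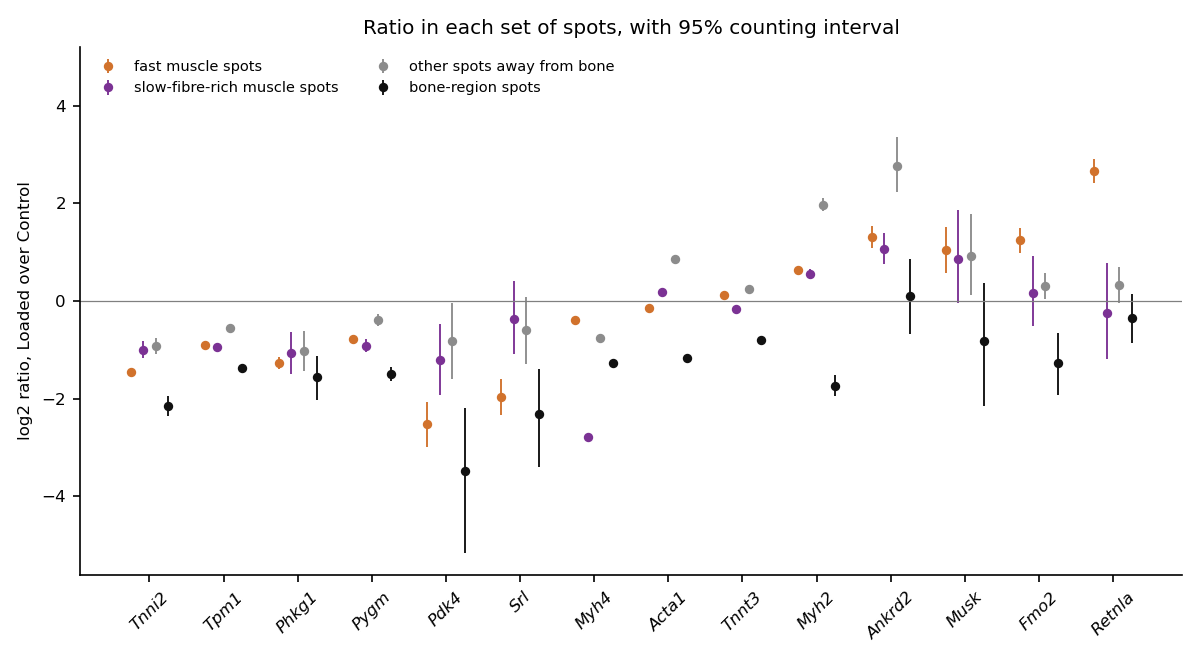
Log2 ratio of Loaded over Control for 14 genes in fast muscle, slow-fibre-rich muscle, other distant, and bone-region spots, with 95% intervals for counting error. The ratios of *Tnni2*, *Tpm1*, *Phkg1*, *Pygm*, *Pdk4*, and *Srl* lie below 0 in all 4 sets. The intervals of *Srl* in slow-fibre-rich and other distant spots include 0. *Retnla* is at 2.66 in fast muscle spots and between -0.36 and 0.33 in the other 3.

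Set beside the slow-fibre-rich muscle spots of the same section, the fast members differed most in genes of fibre type. The 14 other fast fibre genes had a median log2 ratio of 1.07 in Control and 1.38 in Loaded, and the other slow fibre genes -1.82 and -2.14. *Myl3*, the slow myosin light chain, was at -3.93 and -3.52, *Atp2a2*, the slow fibre calcium pump, at -3.66 and -3.40, and *Myh2* at -2.22 and -2.13, although *Myh2* is a fast chain. Genes of glycogen and glycolysis were at 0.94 and 1.13 (16 of 18 and 12 of 17 above 0) and those of fatty acid use at -0.38 and -0.91. *Srl* was 1.14 above slow-rich spots in Control and at -0.46 in Loaded, with intervals of 0.53 to 1.82 and -0.98 to 0.06. *Pdk4* was at 0.65 and -0.65. The 2 sets were chosen on genes of fibre type, so these values describe the choice.

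For *Tnni2*, *Srl*, and *Pdk4*, the levels differed less between distances from bone than between the sections. *Tnni2* was at 26.1, 25.7, and 25.4 normalized UMIs in Control spots at 300 to 600 µm, 600 to 1000 µm, and over 1000 µm, and at 10.4, 10.8, and 7.99 in Loaded spots. *Srl* was at 1.44, 1.27, and 1.12 and at 0.333, 0.375, and 0.269, and *Pdk4* at 1.27, 1.16, and 1.03 and at 0.19, 0.206, and 0.19. In each bin the Control level exceeded the Loaded level of these 3 genes. *Retnla* was at 2.17, 2.08, and 1.11 in the Loaded bins, and *Myh2* at 2.55, 7.44, and 13.1. From spot to spot, the 10th, 50th, and 90th percentile of *Myh4* were 126, 405, and 681 normalized UMIs in Control and 134, 352, and 567 in Loaded, and those of *Tnni2* were 7.21, 22.2, and 45.5 and 1.9, 8.43, and 19.1.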

How the data were processed

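The authors deposited raw UMI counts per gene and spot, made with Space Ranger 2.0.0 (file header) on mm10 with a mouse probe set, for spots under tissue and without normalization. R 4.3.1 and Seurat are named in the submitters' processing notes. Bone-region barcodes came from the study's own list. The members and gene lists were chosen with earlier results of these data known, and support nothing on their own.

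UMIs were summed over member spots and divided by scran size factors (scran 1.30.0, R 4.3.3), the study's normalization. The study's test on spots was not run, because spots of 1 section are not replicates. Ratios have exact conditional binomial intervals and shares exact Clopper-Pearson intervals at 95%, for counting error only (Python 3.11.15, scipy 1.17.1). A sum of 0 was set to 3 UMIs. Genes needed 50 UMIs over both sections. Of 19465 identifiers, 19451 matched GENCODE M21 (GRCm38), the source of coordinates. A symbol was shared by 22 genes.

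Named genes are the 14 of the rule, the 12 highest and 12 lowest with at least 100 UMIs and separate blocks, and of each list the most abundant gene and up to 4 with the largest ratios, of which 1 gene is not reported here. Others complete a family or were picked after their values were seen, among them *G3bp2*, *Fem1a*, *Lrrc30*, *Hint1*, *Sec61b*, *Micos10*, *Pop5*, *Exoc4*, *Gstp1*, *Retnla*, *Cd74*, *H2-Ab1*, *C3*, *Mbnl1*, and *Mfn2*. Alternatives were 4 other scalings (one with edgeR 4.0.16), equal weight for spots, other limits on distance, muscle share, slow share, and UMIs, thinning, and each block left out. The calculation was tested on simulated data. Images were not analysed here.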

Additional observations from a re-analysis of the deposited data

How the results depend on the processing

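The counts of 268 higher and 345 lower genes moved with the settings. The higher count became 484 with library totals, 409 without the 14 rule genes in the totals, 175 with TMM factors, 152 at a muscle share of at least 30%, 74 in the window of 2000 to 5000 UMIs (chosen after the data were seen), 50 after thinning, and 528, 124, and 4873 at minimums of 20, 100, and 1 UMI. The lower count became 205 with library totals, 552 at a muscle share of at least 30%, 110 in the window, 68 after thinning, and 540, 225, and 733 at those minimums. Fewer genes are tested in the window (3133) and after thinning. With a block left out, the higher count lay between 152 (without Control block 1) and 377 and the lower count between 247 and 568 (without Loaded block 4). Of 84 named genes past the threshold, 64 kept their sign under all 23 alternatives run for single genes. The others reversed as follows, and the causes were not tested. With equal weight for spots, *Sln* was at 0.071 and *Igha* at -0.22. At a muscle share of at least 30%, *Eln* was at -0.36, *Sln* at 0.11, *Ndufb3* at 0.42, *Myh3* at 0.34, *Plk2* at -0.079, *Atf3* at 0.81, *Tagln* at -0.19, and *Acta2* at -0.11. In the window, *Camp* was at -0.24, *Hbb-bt* at -0.29, and *Hbb-bs* at -0.84. Other reversals in the window rest on fewer than 50 UMIs in both sections together and make no call. These put *Myo9b* at -0.033, *Myh3* at 0.41, *Eda2r* at -0.18, *S100a8* at -0.77, *S100a9* at -1.15, *Ngp* at -0.61, and *Igha* at -0.088. After thinning, *Tep1* was at -0.36. With a block left out, *Sln* ranged from -1.47 to 2.78 and *Myh3* from -2.14 to 1.39 (both highest without Control block 1), *Comp* from -2.81 to 0.42 and *Dmp1* from -2.47 to 0.12 (both highest without Control block 2), *Acta2* from -0.12 (without Loaded block 3) to 1.62, and *Plk2* from -0.089 (without Loaded block 4) to 1.46. Beside slow-rich spots with library totals, the respiratory chain was at -0.26 in Control (0.10 with scran) and -0.69 in Loaded (-0.43 with scran), and the sarcomere list at -0.096 in Control (0.26 with scran). Genes per spot were 282 and 292 at 500 UMIs and 1832 and 1329 without thinning. No paired analysis was possible because each group is 1 section.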
